A study of Mus musculus with 4 samples.

Results

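Goblet cells were found as 257 of the 2011 cells that passed a common filter, in single-cell RNA sequencing of distal small-intestinal epithelium from 8 mice. A barcode passed the filter with at least 1000 unique molecular identifiers (UMIs, counted molecules) from genes, at least 500 genes, under 20% mitochondrial UMIs, and at least 60% of its hashtag counts in 1 hashtag. A goblet cell then had at least 1% of its UMIs in the mucus genes Muc2, Zg16, Fcgbp and Clca1 together, under 0.5% in the Paneth products Lyz1, Defa17 and Defa24, and at most 3 UMIs of the division genes Mki67 and Top2a. The other 1754 cells that passed the filter were the cells set against them. All these genes chose the cells, so differences between goblet and other cells are described here without a test.

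Goblet cells are the mucus-secreting cells of the gut epithelium. They descend from the Lgr5+ stem cells at the crypt base through secretory progenitors, in which low Notch signalling leaves the factor Atoh1 switched on. Their main product, the mucin Muc2, is folded in the endoplasmic reticulum (ER), coated with O-linked sugars in the Golgi, packed into granules and released into the lumen, where it forms the mucus gel.

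All 8 mice carried Lgr5-EGFP-IRES-CreERT2 and Rosa26-mTmG and received 4-OH-tamoxifen, which activates the recombinase made from the Lgr5 locus and so turns on reporter GFP in stem cells and their descendants. The tracing time was 72 h in mice 5 to 8 and 48 h in mice 1 to 4. From every mouse, GFP-high cells, called clones, and non-recombined GFP-negative cells (control epithelium) were collected by flow sorting with antibodies to EpCAM, CD31 and CD45. The Lgr5 allele itself also makes EGFP, and where the gates lay is not given in the sources used here. No age, sex or strain was given, and untreated mice were not among the samples. A different hashtag antibody marked each mouse, and its clones and its control cells went into opposite pools of the 2 sequenced.

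The clones traced for 72 h comprised 656 filtered cells with 57 goblet cells, and their control comprised 646 with 98. The clones traced for 48 h comprised 76 filtered cells with 8 goblet cells, and their control comprised 633 with 94. Totals per mouse and gate were 77566 to 428117 UMIs in the 48 h clones and 779266 to 6964208 UMIs in the other 3 groups. The 48 h clones of mouse 3 stood apart with a median of 1638 UMIs per cell, against 13135.5 to 19517.5 in the other 48 h clones, and its 6 goblet cells had a median of 1232.5 UMIs. The pools shared 1 barcode sequence, which belonged to no goblet cell.

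Promoter sequences of 4 goblet genes are shown here, chosen after the search from the genes whose window held a motif and which were at least 2-fold higher in the goblet cells of every mouse. Each holds the 250 bases before the transcription start in RefSeq (GRCm38.p6), 5′ to 3′ on the strand of the gene. Capitals mark matches on either strand to 1 of 4 motifs searched, namely CAGCTG (an E-box of the kind bound by basic helix-loop-helix factors), TGTTTAC (forkhead), ACGTG (a core shared by Xbp1 and Creb3l sites) and TTTATG (caudal). Muc2 codes for the gel-forming mucin (chr7:141690090-141690339, plus strand), Fcgbp for a mucus protein that binds the gel (chr7:28070986-28071235, plus strand), Agr2 for an ER disulfide isomerase needed to make Muc2 (chr12:35992675-35992924, plus strand) and Spdef for a factor of goblet maturation (chr17:27728952-27729201, minus strand).
Muc2: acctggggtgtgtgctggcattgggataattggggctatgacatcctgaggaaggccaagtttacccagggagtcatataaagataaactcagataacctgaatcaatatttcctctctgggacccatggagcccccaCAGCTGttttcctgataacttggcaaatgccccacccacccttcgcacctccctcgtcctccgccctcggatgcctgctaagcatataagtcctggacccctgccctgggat
Fcgbp: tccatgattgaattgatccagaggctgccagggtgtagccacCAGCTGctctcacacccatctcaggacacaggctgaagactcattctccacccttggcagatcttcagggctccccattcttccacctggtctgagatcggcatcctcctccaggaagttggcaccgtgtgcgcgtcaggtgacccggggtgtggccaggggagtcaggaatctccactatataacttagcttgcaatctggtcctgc
Agr2: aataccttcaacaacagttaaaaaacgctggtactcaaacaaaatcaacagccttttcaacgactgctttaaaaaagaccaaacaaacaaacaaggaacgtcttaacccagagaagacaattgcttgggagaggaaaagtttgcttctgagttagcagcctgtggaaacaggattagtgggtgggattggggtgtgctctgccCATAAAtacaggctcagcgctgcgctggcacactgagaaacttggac
Spdef: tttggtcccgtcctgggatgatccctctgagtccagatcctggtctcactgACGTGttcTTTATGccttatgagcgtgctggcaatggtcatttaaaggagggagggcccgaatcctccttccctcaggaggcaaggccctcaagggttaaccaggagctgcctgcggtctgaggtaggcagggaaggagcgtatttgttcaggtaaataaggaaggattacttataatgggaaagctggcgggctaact
The CAGCTG match began 112 bases before the start of Muc2 and 208 bases before that of Fcgbp, and 13.0% of 32851 RefSeq promoter windows of this length held one. The TTTATG match, read on the other strand, lay 47 bases before the start of Agr2, and Spdef held both an ACGTG match at 199 bases and a TTTATG match at 191 bases. ACGTG was found in 16.6% and TTTATG in 10.8% of all windows. The windows shown held no TGTTTAC, which was found in 3.17% of all windows, and the matches shown did not overlap. Of 17 goblet genes looked up, 12 had a promoter entry. Of these, 6 held a match, with Foxa1 and Klf4 beside the 4 shown, and 6 held none, namely Atoh1, Foxa2, Foxa3, Creb3l4, Xbp1 and Gfi1. Zg16, Clca1, Tff3, Spink4 and Creb3l1 were without one.

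The mucus genes of the rule separated a broad group of cells. Across goblet cells the 4 genes took 1.01% to 30.1% of a cell's UMIs, with a median of 2.88%, against a median of 0.0157% in the other cells. The 5 cells just inside the threshold had 1.01% to 1.04%, and the 5 just outside it had 0.924% to 0.998%. The plot of mucus shares has no gap at the threshold, and 135 other cells lay between 0.5% and 1%. In all, 363 cells had at least 1% mucus. Of these, 68 failed the limit on Paneth products and 38 more failed only the limit on division genes.

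**Figure D1:**
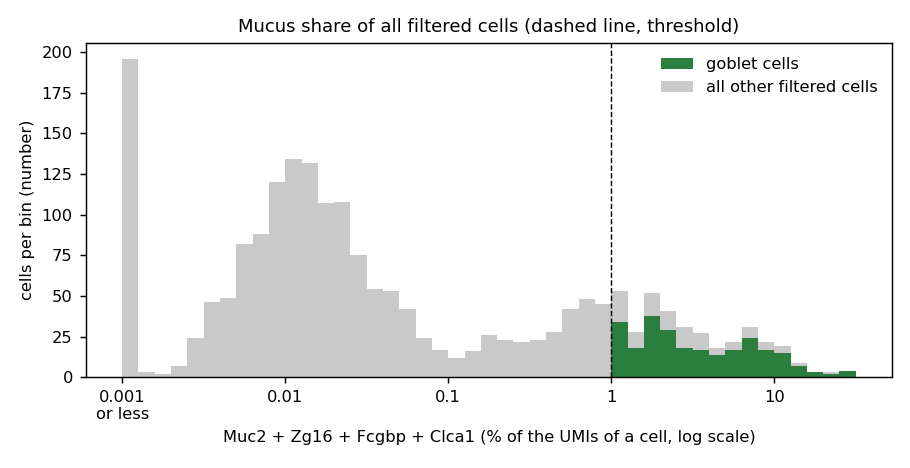
Histogram of the share of a cell's UMIs in Muc2, Zg16, Fcgbp and Clca1 together (log axis, in percent) for the 2011 filtered cells, with goblet cells in green and all other cells in grey. The 257 goblet cells lie right of the dashed line at 1%, and the grey cells right of it held Paneth products or division UMIs.

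Each of the 4 genes was higher in the goblet cells of every mouse, and as members of the rule they chose the cells. Muc2 (chr7:141690340-141754693) had 8970 to 12924 CPM (UMIs scaled to a total of 1000000 per sum) with a median of 10115 in goblet cells, against 619 to 1988 CPM with a median of 1608 in other cells. Zg16, a lectin that keeps bacteria away from the epithelium, had 11585 to 39348 CPM with a median of 20809.7 in goblet cells, against 152 to 2600 CPM with a median of 1621 in other cells. Zg16 thus had the widest range of the 4 among the goblet cells of the 8 mice. Fcgbp had a median of 8220.5 CPM in goblet cells and 977 CPM in other cells. Clca1, a metalloprotease that processes the mucus gel, had medians of 5935 CPM in goblet cells and 422 CPM in other cells.

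Within single goblet cells the 4 genes did not move as a block. Muc2 and Fcgbp had a UMI in all 257 cells, while 20 cells had no UMI of Zg16 and 6 had none of Clca1. Muc2 took a median of 0.967% of a cell's UMIs, with quartiles at 0.601% and 1.52%. Zg16 took a median of 0.517%, with quartiles at 0.0264% and 2.45% and a highest value of 20.2%. The UMIs of Zg16 were the most numerous of the 4 genes in 94 cells, those of Muc2 in 93, those of Fcgbp in 52 and those of Clca1 in 18. In 51 goblet cells Zg16 took over 50% of the UMIs of the 4 genes, in 54 cells it took under 1%, and 152 cells lay between. In cells with under 0.1% mucus, where such UMIs can be free RNA, Zg16 took 41.9% of the UMIs of the 4 genes in pool 1 and 29.8% in pool 2. In the 28 goblet cells with under 5000 UMIs the median of the shares of single cells, a different measure, was 16.9% in pool 1 and 17.9% in pool 2. The part of free RNA in the spread of Zg16 was not tested.

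**Figure D2:**
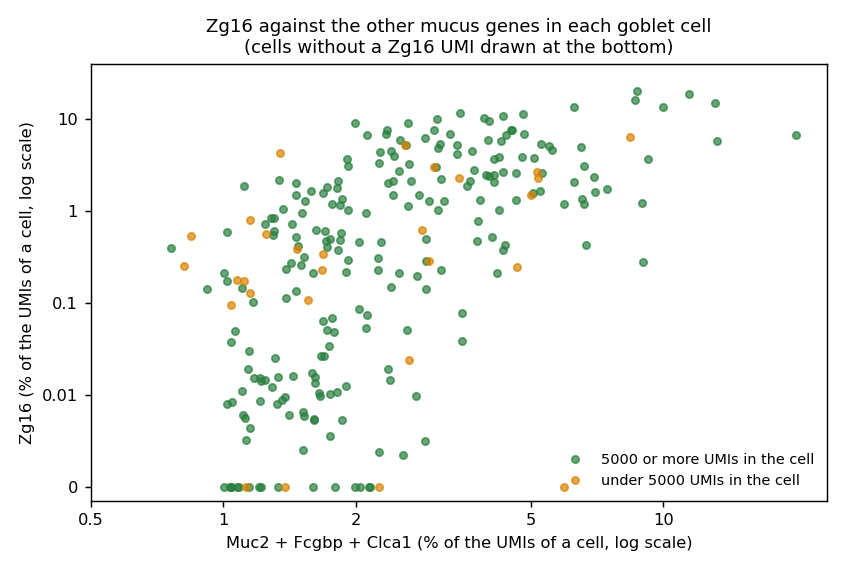
Zg16 against the sum of Muc2, Fcgbp and Clca1 in each of the 257 goblet cells, both in percent of the cell's UMIs on log axes, with the 28 cells under 5000 UMIs in orange. Zg16 spans 0 to 20.2%, and the 20 cells without a Zg16 UMI sit in a row at the bottom.

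Goblet cells had more UMIs and fewer mitochondrial UMIs than the other cells. Their median was 24495 UMIs and 4525 genes, against 19123.5 UMIs and 4358.5 genes in the other cells. Mitochondrial genes took a median of 4.73% of UMIs in goblet cells and 7.36% in other cells. In mouse 6 goblet cells had fewer UMIs than other cells (medians of 16511 and 19088.5), and in the other 7 mice they had more.

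Of 6480 genes with a mean of at least 20 CPM in either set of cells, 212 (3.27%) were at least 2-fold higher in the goblet cells of every mouse and 455 (7.02%) were at least 2-fold lower. Ratios were taken per mouse after adding 1 CPM. The median gene stood at -0.29 on the log2 scale. Measured from each mouse's median gene, 341 genes were higher and 336 lower. All 4 genes of the rule are among the 212, so the counts below are read beside these shares and not as tests.

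Products of goblet cells outside the rule followed the same split. Of 13 such genes, all tested, 10 were at least 2-fold higher in every mouse and 0 were lower, with a median log2 ratio of 2.28. Tff3, the trefoil peptide that travels with Muc2, had 26976 to 37136 CPM with a median of 34825 in goblet cells, against 3049 to 7229 CPM with a median of 5292 in other cells. The groups did not overlap, and the median log2 ratio was 2.60 (range over 8 mice 2.19 to 3.56). Spink4, a secreted protein of the serine protease inhibitor family, had medians of 24442 CPM in goblet cells and 5011 CPM in other cells, and Agr2 had 20659 and 3705 CPM. Guca2a, the precursor of the hormone guanylin, was 4820 CPM in goblet cells and 823 CPM in other cells (medians). Ccl6, a chemokine, and Klk1, a kallikrein protease, reached log2 ratios of 2.73 and 2.62. Retnlb, an antibacterial resistin-like protein, was not among the 10: its medians were 2.35 CPM in goblet cells and 13.1 CPM in other cells, with 0 to 129 CPM over the goblet cells of the 8 mice. Muc13, a membrane mucin, had a log2 ratio of 0.83, and the chemokine Ccl9 one of 1.06, both below 2-fold in at least 1 mouse.

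**Figure D3:**
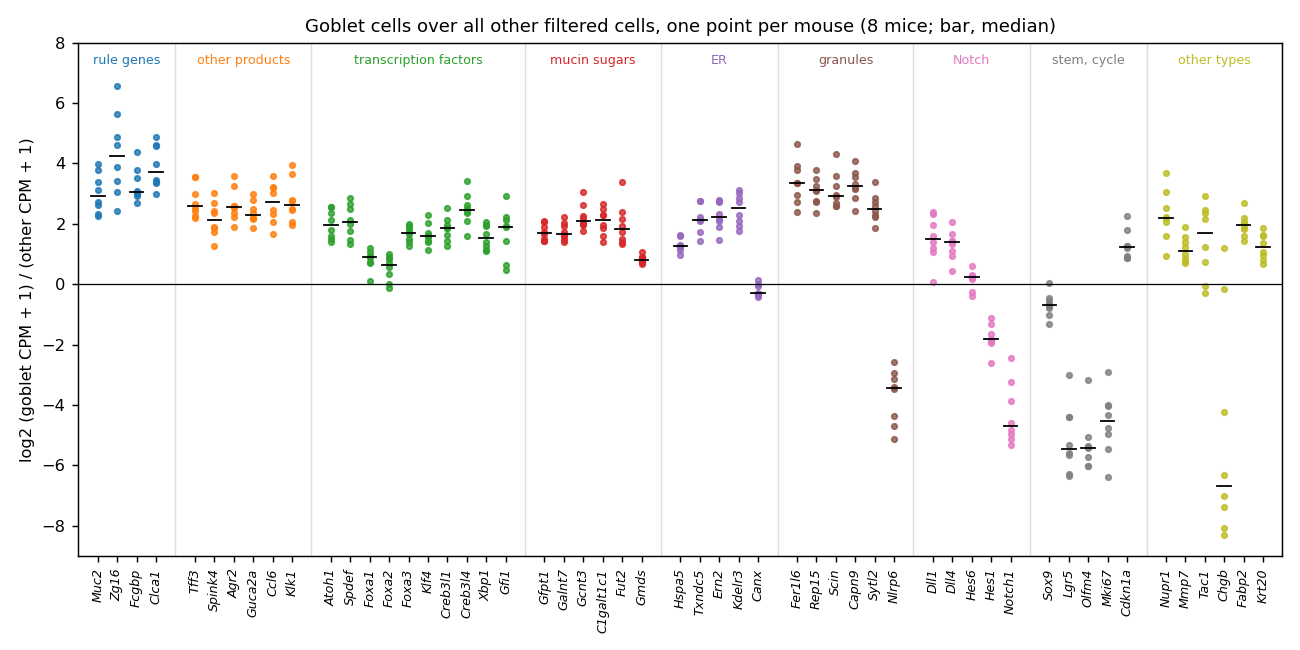
Log2 ratio of CPM plus 1 in goblet cells over CPM plus 1 in all other filtered cells for genes grouped by role, with 1 point for each of the 8 mice and a bar at the median. Products, most granule genes and most transcription factors lie above 0 in every mouse, while Nlrp6, Hes1, Notch1, Lgr5, Olfm4 and Mki67 lie below 0 in every mouse.

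Of 10 transcription factors of the goblet lineage, 9 passed the filter on low values, 7 were at least 2-fold higher in every mouse and 0 were lower (median log2 ratio 1.86). Atoh1, which commits progenitors to secretory fates, had 135 to 197 CPM with a median of 177 in goblet cells, against 25.6 to 70.8 CPM with a median of 40.9 in other cells. Spdef had 128 to 289 CPM with a median of 152 in goblet cells, against 20.9 to 57.2 CPM with a median of 40.7 in other cells. Neither gene overlapped between the sets of cells, with log2 ratios of 1.97 and 2.05. Creb3l4 (2.46) and Creb3l1 (1.86), membrane-bound factors that raise secretory capacity, Foxa3 (1.69), Klf4 (1.58), a factor of terminal goblet differentiation, and Xbp1 (1.52), the factor of the unfolded protein response, were the others. The zinc finger factor Gfi1, which keeps goblet and Paneth cells from the enteroendocrine fate, had 23.2 CPM in goblet cells and 7.24 CPM in other cells (medians) and was below 2-fold in at least 1 mouse. Foxa1 had a log2 ratio of 0.90 (range 0.11 to 1.19). Foxa2 did not pass the filter, with 16.3 CPM in goblet cells and 11.7 CPM in other cells (medians).

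Genes that attach sugars to mucins or supply them were higher in part. Of 26 such genes, 21 passed the filter, 13 were at least 2-fold higher in every mouse and 0 were lower, and measured from the median gene 16 were higher. Gfpt1, which starts the synthesis of amino sugars, had 718 to 1292 CPM with a median of 939 in goblet cells, against 191 to 404 CPM with a median of 313 in other cells. Galnt7, a transferase of O-glycosylation, had medians of 903 CPM in goblet cells and 273 CPM in other cells. Gcnt3, which branches O-glycans, reached a log2 ratio of 2.11, C1galt1c1, the chaperone of the core 1 enzyme, 2.12, and Fut2, which adds terminal fucose, 1.84. Gmds, which makes activated fucose, had a log2 ratio of 0.81 (range 0.65 to 1.07). St6galnac1, a sialyltransferase, and B4galnt3 had no UMI in the goblet cells, which allows up to 0.507 CPM (3 counts over all goblet cells), and B3gnt6, the core 3 enzyme, averaged 0.1 CPM there.

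ER genes were higher in part. Of 26 genes of folding and stress sensing, 25 passed the filter, 9 were at least 2-fold higher in every mouse and 0 were lower, and measured from the median gene 16 were higher. Txndc5, a disulfide isomerase, had 919 to 1276 CPM with a median of 1083 in goblet cells, against 149 to 382 CPM with a median of 269 in other cells. Ern2, the epithelial form of the stress sensor IRE1, had medians of 229 CPM in goblet cells and 48.2 CPM in other cells (log2 ratio 2.23). Ern1, the form found in most cells, had a log2 ratio of 0.33. Kdelr3, a receptor that returns ER proteins, reached 2.51. Hspa5, the main ER chaperone, had 931 to 2245 CPM in goblet cells against 424 to 981 CPM in other cells, with a log2 ratio of 1.27 that was below 2-fold in at least 1 mouse, and Pdia3 and Hsp90b1 had ratios of 1.16 and 0.52. Canx, a lectin chaperone, had 341 CPM in goblet cells and 388 CPM in other cells (medians, log2 ratio -0.31).

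Among genes outside the rule that were at least 2-fold higher in every mouse, granule and exocytosis genes made up 6 of the 15 with the largest ratios. As this list was chosen with earlier results of these data known, its counts are not independent support. Of the 20 genes listed, 19 passed the filter, 15 were at least 2-fold higher in every mouse and 1 was lower (median log2 ratio 2.12). Fer1l6, of the ferlin family of membrane fusion proteins, stood first among the genes outside the rule that were at least 2-fold higher in every mouse. It had 133 to 207 CPM and a median of 157 in goblet cells, against 6.84 to 26.7 CPM and a median of 13.7 in other cells. Rep15, an effector of Rab15, had medians of 309 CPM in goblet cells and 33.0 CPM in other cells. Scin, an actin-severing protein, had 405 and 50.5 CPM, and Capn9, a calpain protease of the gut, 85.0 and 6.72 CPM. Bcas1 (log2 ratio 2.88) and Bace2, a membrane protease (2.67), were also among the 15, and Sytl2, which links Rab27 to the plasma membrane, reached 2.50. Nlrp6, an inflammasome sensor reported to act in mucus release, was the 1 lower gene, with 3.83 to 37.2 CPM and a median of 12.9 in goblet cells, against 110 to 226 CPM and a median of 164 in other cells.

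The rest of the 15 with the largest ratios were of mixed roles. Sval1, a protein like seminal vesicle antigen, had 34.0 to 123 CPM in goblet cells and 1.87 to 38.3 CPM in other cells, so the groups overlapped across mice although every mouse was higher in goblet cells. Rgs2, a brake on G protein signalling, had medians of 490 CPM in goblet cells and 47.3 CPM in other cells, and P2ry4, a nucleotide receptor, 23.0 and 1.99 CPM. Cdc42ep3, an effector of Cdc42 (log2 ratio 2.83), Gde1, a glycerophosphodiesterase (2.81), Hgfac, the protease that activates hepatocyte growth factor (2.79), and Myof, a ferlin (2.65), were also among the 15.

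Of 12 Notch pathway genes, 6 passed the filter, 0 were higher and 2 were lower in every mouse. Hes1, the Notch target that represses Atoh1, had 71.6 to 171 CPM with a median of 97.7 in goblet cells, against 239 to 543 CPM with a median of 352 in other cells. The groups did not overlap (log2 ratio -1.83), and Hes1 was not among the lower genes when measured from the median gene. Notch1, a receptor, had 0 to 3.40 CPM in goblet cells and 21.6 to 48.5 CPM in other cells. Dll1, the ligand with which secretory progenitors signal to their neighbours, had 47.5 to 130 CPM in goblet cells and 22.4 to 45.9 CPM in other cells. It was higher in 8 of 8 mice, by 0.08 to 2.38 on the log2 scale. Hes6, an inhibitor of Hes1, had medians of 97.3 CPM in goblet cells and 84.9 CPM in other cells, with 6 of 8 mice higher.

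Stem and division genes were lower in part. Of 10 stem markers, all tested, 6 were lower in every mouse and 0 higher. Lgr5 had 0 to 13.1 CPM with a median of 0.825 in goblet cells, against 38.9 to 112 CPM with a median of 78.8 in other cells. Olfm4, a secreted stem marker, had 23.8 to 355 CPM in goblet cells and 1340 to 3184 CPM in other cells, without overlap. Sox9, present in stem and secretory cells, had log2 ratios of -1.33 to 0.02. Of 15 cell cycle genes outside the rule, 14 passed the filter, 9 were lower in every mouse and 0 higher. The limit on Mki67 and Top2a placed dividing cells among the other cells, so lower cycle genes follow in part from the rule. The cyclin Ccnd2 had a log2 ratio of 0.67 and Cdkn1a, the inhibitor of cyclin-dependent kinases p21, one of 1.22 (range 0.86 to 2.26), and measured from the median gene Cdkn1a was among the higher genes. Ccnd1, the other D cyclin named, had a ratio of -1.47.

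Markers of immune, stromal and tuft cells were near 0 in goblet cells, while some markers of the other epithelial types were not. Of 12 immune and stromal markers, 10 had no UMI in goblet cells, Ptprc, Pecam1 and Col1a1 among them, and the 12 summed to 0 to 5.72 CPM per mouse in goblet cells and 8.98 to 37.9 CPM in other cells. The 10 tuft markers summed to 1.64 to 4.38 CPM in goblet cells and 10.8 to 354 CPM in other cells, with 4 at 0 in goblet cells, Trpm5 and Rgs13 among them. The 12 enteroendocrine markers summed to 265 to 523 CPM in goblet cells and 91.4 to 3038 CPM in other cells. Neurod1 was among the 3 of them at 0, and the granin Chgb had a median of 1.80 CPM in goblet cells and 219 CPM in other cells. Sct, the hormone secretin, and Tac1, the precursor of substance P, made up most of the goblet sum, with medians of 265 and 117 CPM in goblet cells and 99.2 and 32.3 CPM in other cells. Tac1 was higher in 6 of 8 mice and Sct in 8 of 8, and both overlapped between the sets.

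Of 12 enterocyte markers, 6 passed the filter, 4 were lower in every mouse and 1 was higher. The higher gene was Fabp2, a fatty acid binding protein, with 660 to 929 CPM and a median of 758 in goblet cells, against 123 to 341 CPM and a median of 196 in other cells. Krt20, a keratin of differentiated cells, had a log2 ratio of 1.22. Enterocyte markers summed to 927 to 1384 CPM in goblet cells and 537 to 953 CPM in other cells, and Alpi, Apoa4 and Lct were at 0 in goblet cells.

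Of 7 Paneth markers outside the rule, all tested, 2 were lower in every mouse, the defensins Defa22 and Defa30, which share reads with near-identical copies. The limit on Lyz1, Defa17 and Defa24 placed cells rich in Paneth products among the other cells, so lower defensins follow in part from the rule. The 7 markers summed to 1063 to 2713 CPM in goblet cells and 495 to 7953 CPM in other cells. Mmp7, the protease that activates defensins, had 551 to 1758 CPM in goblet cells and 250 to 720 CPM in other cells, and Nupr1, a stress-response nuclear protein, had 254 to 471 and 20.6 to 156 CPM. Both were higher in 8 of 8 mice and below 2-fold in at least 1.

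Of 10 immediate early and stress genes, which tissue dissociation is known to induce, 0 were 2-fold higher in every mouse, with a median log2 ratio of 0.99. Atf3 had medians of 1610 CPM in goblet cells and 587 CPM in other cells, without overlap, and Fos and Jun had ratios of 1.01 and 0.78. The part of dissociation in these or other ratios was not tested. The 12 genes of oxidative phosphorylation had 0 higher and 0 lower, with a median ratio of -0.30, close to that of all genes.

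Goblet cells were also compared among themselves along their mucus share, in ranges chosen after the values were seen. Of the 257 cells, 91 had under 2% mucus, 77 had 2% to 5% and 89 had 5% or more, and every mouse had at least 3 cells in each range. Median depth was 24228 UMIs in the low range, 26753 in the middle and 23274 in the high range. Of 2967 genes tested, 14 (0.472%) were at least 1.5-fold higher in the high than in the low range in every mouse and 21 (0.708%) were at least 1.5-fold lower, after adding 5 CPM. The median gene stood at -0.19, and no test was made because mucus genes set the ranges and also the total they are scaled to.

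The 14 higher genes included all 4 of the rule. Zg16 averaged 1127 ± 810 CPM in the low range, 8359.9 CPM in the middle and 57654 ± 15629 CPM in the high range (SD, n = 8 mice), a log2 ratio of 6.03 between high and low. Muc2 averaged 16144 ± 1594 CPM in the high range and 5433 ± 1402 CPM in the low range, and Fcgbp and Clca1 had similar ratios of 1.59 and 1.54. Of the others, Tm4sf4, a tetraspanin-like membrane protein, averaged 159 ± 89.6 CPM in the high range and 23.4 ± 17.3 CPM in the low range (log2 ratio 2.38). Ifi27l2b, of an interferon-inducible family, had 1005 ± 313 and 319 ± 78.0 CPM. Hmgcs1, an enzyme of sterol synthesis (1.31), Muc3a, a membrane mucin (1.30), Ramp1, a receptor partner of the calcitonin family (1.36), Krt20 (0.96), Hgfac (1.36), Sval1 (1.56), Clec2h, a C-type lectin (0.94), and Bcas1 (0.77) completed the 14.

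Tff3 and Spink4 were higher in the high range in 8 of 8 mice but by less than 1.5-fold in at least 1, with log2 ratios of 0.81 and 0.77. Agr2 had 18849 ± 3874 CPM in the high range and 19373 ± 6277 CPM in the low range, and Atoh1 had 165 ± 35.8 and 170 ± 47.0 CPM. Both thus differed by less than the spread between mice. Foxa3 (-0.40) and Creb3l1 (-0.62) had lower ratios, with 1 and 2 of 8 mice higher. Klf4 had a ratio of 0.72 with 7 of 8 mice higher. No member of the transcription factor list was called in either direction.

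Among the 21 lower genes, Clca3b, a chloride channel regulator family gene related to Clca1, had 229.9 ± 67.1 CPM in the low range, 85.0 CPM in the middle and 22.5 ± 14.0 CPM in the high range (log2 ratio -3.43, high over low). Reads may be shared between these copies, so its level is uncertain. Smoc2, a stem marker, had 13.6 ± 6.41 and 52.2 ± 45.7 CPM, and Hmgn2, a nucleosome-binding protein, 26.4 ± 16.5 and 91.0 ± 20.6 CPM. Hsp90ab1, a cytosolic chaperone, Cct4, a subunit of the chaperonin, Hnrnpa1 and Rbm3, which bind RNA, and Oit1, a secreted protein, were lower too, with ratios of -1.04 to -1.12. Of 80 ribosomal protein genes, a list chosen after the values were seen, 6 were lower and 0 higher, with a median of -0.62.

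Cells just below the mucus threshold were close to goblet cells in lineage factors and lower in products. In summed counts, goblet cells had 176 CPM of Atoh1 and 168 CPM of Spdef. The 65 cells with 0.5% to 1% mucus that met the other limits (median 22912 UMIs) had 179 and 175 CPM of these 2 genes, and all other cells had 45.0 and 37.7 CPM. Tff3 was 34129.8 CPM in goblet cells, 17989.8 CPM in the 65 cells and 5053 CPM in all other cells. Clca3b was 105 CPM in goblet cells, 421 CPM in the 65 cells and 786 CPM in all other cells. The 38 cells kept out by division UMIs alone had 7072 CPM of Muc2 and 152 CPM of Atoh1, and the 68 kept out by Paneth products had 13726 CPM of Muc2 and 25707 CPM of Defa24. In those 68 cells Tff3 was 38035, Spink4 50567 and Guca2a 6194 CPM, against 34129.8, 25579 and 4876 CPM in goblet cells. Agr2 was 17468 against 21147 CPM and Fer1l6 147 against 171 CPM, so high levels of these genes were not particular to goblet cells. The 68 cells had a median of 32022.5 UMIs, and doublets were not tested for.

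At 72 h goblet cells made up a smaller share of clones than of control cells in each mouse. The shares in clones were 6.75%, 10.8%, 5.31% and 10.5% in mice 5, 6, 7 and 8, against 11.3%, 14.2%, 13.4% and 21.9% in control. The groups did not overlap, and clones were lower in 4 of 4 mice. The means were 8.34% ± 2.74 in clones and 15.2% ± 4.60 in control (SD, n = 4 mice), a difference of -6.86 percentage points. An exact two-sided permutation test over mice gave p = 0.0286, the smallest that 4 against 4 allows, and 0.171 after Benjamini-Hochberg adjustment over the 6 comparisons of shares. Exact sign flips within mice gave p = 0.125, the smallest they allow. Within pool 1 the means were 7.90% in clones and 12.8% in control, and within pool 2 they were 8.78% and 17.6%, with 2 mice behind each value. Clones and control of a mouse lay in opposite pools, so a pool holds different mice on each side.

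**Figure D4:**
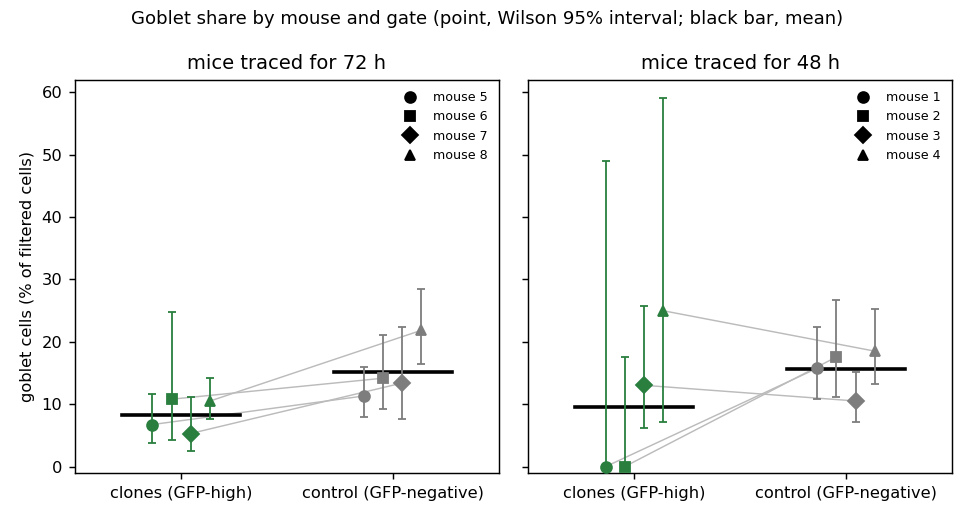
Goblet cells as a percentage of filtered cells in clones (green) and control (grey), with 72 h on the left and 48 h on the right, 1 symbol per mouse with its Wilson 95% interval, a line joining the gates of a mouse and a black bar at the mean. At 72 h every mouse is lower in clones, and at 48 h clones span 0% to 25.0%.

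At 48 h the clones held too few cells for a firm share. Goblet cells were 0 of 4, 0 of 18, 6 of 46 and 2 of 8 clone cells in mice 1, 2, 3 and 4, against 24 of 152, 16 of 91, 24 of 228 and 30 of 162 control cells. The counts of 0 allow shares of up to 75% and 16.7% (3 counts of the total). The Wilson intervals drawn in the plot of shares end at 49.0% and 17.6% for the same sets. The 95% Wilson interval of the 25.0% in mouse 4 was 7.15% to 59.1%, which covers counting error only. The means were 9.51% ± 12 in clones and 15.6% ± 3.57 in control (SD, n = 4, -6.09 points, exact permutation p = 0.343, adjusted 0.686), with clones lower in 2 of 4 mice. All 8 goblet cells of the 48 h clones lay in pool 1. Without mouse 3, whose clone cells were shallow, the difference was -8.96 points (exact permutation p = 0.4, n = 3). It was -2.86 points without mouse 1, -2.26 without mouse 2 and -10.3 without mouse 4, with exact permutation p of 0.8, 0.8 and 0.2.

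Over all 8 mice the share was 8.93% ± 8.09 in clones and 15.4% ± 3.82 in control (SD, n = 8, -6.47 points, exact permutation p = 0.0611, adjusted 0.183), and clones were lower in 6 of 8 mice. These permutation tests do not use the pairing of gates within mice. Exact sign flips within mice gave p = 0.0781. Leaving out sets of under 10 cells, which drops the clones of mice 1 and 4 but keeps their control, gave -7.67 points (exact permutation p = 0.00333). The difference was -8.33 points without mouse 4, with 8 clone cells (p = 0.0035 in the same exact test). Leaving out mouse 3 gave -7.76 points (exact permutation p = 0.0478). Leaving out any of the other 6 mice gave -6.92 to -4.89 points, with exact permutation p of 0.0851 to 0.168, the last without mouse 2. Between times, clones differed by -1.17 points (72 h minus 48 h, exact permutation p = 0.886, n = 4) and control by -0.41 points (p = 0.857 in the same test). The clone-control difference itself changed by -0.76 points between 72 h and 48 h (exact permutation p = 0.914, n = 4), so a difference between the times was not detectable. With at least 5000 UMIs per cell, the clone difference between times was 0.743 points.

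The mucus share of a goblet cell was not shown to differ between gates or times. In 72 h clones the median per mouse was 3.77%, 6.47% and 2.94% in mice 5, 7 and 8, which had at least 5 goblet cells, against 2.13%, 3.18%, 5.62% and 4.58% in control cells of mice 5 to 8. The means were 4.39% ± 1.84 in clones (SD, n = 3) and 3.87% ± 1.54 in control (SD, n = 4), and an exact permutation test gave p = 0.657. In 48 h control the medians per mouse were 4.99%, 2.69%, 2.40% and 1.88%, with a mean of 2.99% ± 1.38 (SD, n = 4), and 72 h control exceeded it by 0.886 points (exact permutation p = 0.371). Without 1 mouse, the difference between gates was 0.0610 to 1.48 points and that between times 0.306 to 1.55 points. The ranges overlapped in both comparisons.

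Gene expression within goblet cells was compared on UMIs summed per mouse and gate. Between 72 h clones (3 sums, of 11, 6 and 36 goblet cells) and 72 h control (4 sums), edgeR called 0 of 6477 genes higher (0%) and 0 lower (0%) at an adjusted p under 0.05, with 215 genes at an unadjusted p under 0.05, and DESeq2 called 0. Clone sums of under 10 cells were admitted here, since only 2 reached 10. The median standard error over genes was 0.31 on the log2 scale. Of the 4 rule genes, 13 other products and 10 transcription factors, 0 had an unadjusted p under 0.05. Over all 6477 genes the share was 3.32%, so a count of 0 in lists this short shows little. Without mouse 5, edgeR called Ccl9 (log2 change 1.76 ± 0.31, adjusted p = 0.0348). That fit had only 2 clone sums in place of 3, those of mice 7 and 8, both in pool 1. Among listed genes with an unadjusted p under 0.05 were Scin, with 551 ± 46.1 CPM in clones and 371 ± 68.7 CPM in control (SD, n = 3 and 4, edgeR adjusted p = 0.999), and Olfm4, with 11.8, 929 and 42.0 CPM in the clones of mice 5, 7 and 8, against 44.9 ± 43.0 CPM in control.

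Clones and control cells came from the same mice, and with mouse as a block edgeR called 5 genes, 3 higher and 2 lower, which were named after their values were seen. Only mice 5, 7 and 8 had sums of both gates, so the blocked changes rest on 3 pairs. The terms for every mouse and for pool left little to estimate the spread from, so the blocked p-values are uncertain. Guca2b, the precursor of uroguanylin, had 407, 464 and 343 CPM in the clones of mice 5, 7 and 8, against 234, 209 and 195 CPM in their control cells and 246 CPM in the control cells of mouse 6. The groups did not overlap, the blocked log2 change was 0.86 ± 0.19 (edgeR adjusted p = 0.0101), and without the block it was 0.85 ± 0.24 (adjusted p = 0.999, unadjusted p = 0.00158). Lgals3, a galectin, had 14.8, 29.4 and 42.0 CPM in clones of the 3 mice, against 79.1, 146 and 50.5 CPM in their control cells and 18.0 CPM in those of mouse 6 (blocked change -1.67 ± 0.35, edgeR adjusted p = 0.0101). Itln1, a lectin of Paneth and goblet cells with near-identical copies, had 218, 582 and 327 CPM in clones, against 121, 115 and 274 CPM in their control cells and 569 CPM in those of mouse 6 (0.93 ± 0.20, edgeR adjusted p = 0.0101). These 3 moved the same way in 3 of 3 mice, and the control value of mouse 6 made the groups overlap for Lgals3 and Itln1.

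The other 2 did not move the same way in every mouse. Mmp7 had 1426, 811 and 1665 CPM in clones of mice 5, 7 and 8, against 698, 398 and 1688 CPM in control (blocked change 0.71 ± 0.17, edgeR adjusted p = 0.0372). Sval1 had 0, 229 and 98.9 CPM in clones, against 73.8, 59.3 and 88.1 CPM in control, while its blocked change was -3.79 ± 0.84 (edgeR adjusted p = 0.0101). In that fit mouse 5 is the only 1 of the 3 with clones in pool 2, and the pool term sets it against the 2 others. Goblet cells of 48 h clones numbered 8 in 2 mice and were not tested.

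**Figure D5:**
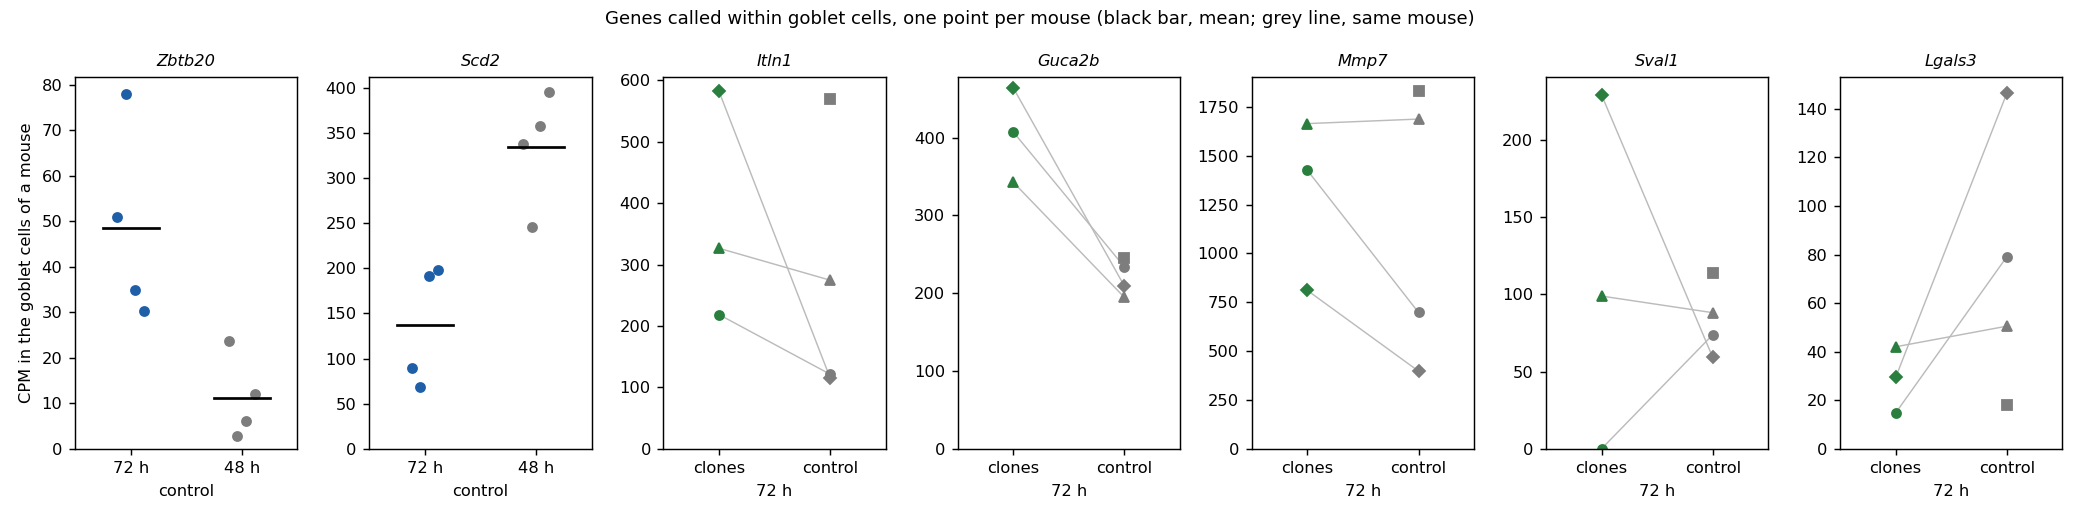
CPM in the summed goblet cells of each mouse, for Zbtb20 and Scd2 in 72 h and 48 h control and for the 5 genes called with mouse as a block in 72 h clones and control, with grey lines joining the gates of a mouse and axes from 0. Zbtb20 and Scd2 do not overlap between times, which holds for 4.14% of all genes tested. Guca2b does not overlap between gates, which holds for 4.76%.

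Between control goblet cells of 72 h and 48 h, edgeR called 1 of 6812 genes higher (0.0147%) and 1 lower (0.0147%), with 315 genes at an unadjusted p under 0.05. Zbtb20, a zinc finger repressor (chr16:42875881-43642602), had 51.0, 77.9, 34.9 and 30.3 CPM in mice 5 to 8 at 72 h, against 23.8, 2.86, 6.18 and 12.1 CPM in mice 1 to 4 at 48 h. It rose by 1.97 ± 0.36 on the log2 scale (edgeR adjusted p = 0.0451), without overlap between the times. Of all 6812 genes, 282 (4.14%) were without overlap. Scd2, a fatty acid desaturase (chr19:44293674-44306864), had 89.7, 68.9, 192 and 198 CPM at 72 h, against 338, 246, 358 and 396 CPM at 48 h. It fell by 1.21 ± 0.23 (edgeR adjusted p = 0.0451), also without overlap. Both lost their call in most other settings, among them the fit without the pool term (adjusted p = 0.0816 for each in edgeR). Their log2 changes ran from 1.60 to 2.48 for Zbtb20 and from -1.38 to -1.04 for Scd2 over those settings. The mice of the 2 times differ, so time and mouse cannot be told apart beyond the spread between mice.

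With all 8 mice and the filter on low counts, no product of goblet cells passed the threshold between the times. Of the 4 rule genes 2 had an unadjusted p under 0.05: Zg16, with 28438 ± 7230 CPM at 72 h and 17715 ± 9603 CPM at 48 h (edgeR adjusted p = 0.818), and Fcgbp, with 10198 ± 3083 and 7686 ± 872 CPM (adjusted p = 0.812 in edgeR; SD, n = 4). Zg16 was called without mouse 1 (log2 change 1.33 ± 0.20, edgeR adjusted p = 0.00555). With every gene kept, Zg16 (0.75), Fcgbp (0.50) and Retnlb (4.21) were called in edgeR. Tff3 had 35589 ± 1554 and 31282 ± 3718 CPM (edgeR adjusted p = 0.944). Retnlb had 32.4 ± 40.5 CPM at 72 h and 1.93 ± 3.86 CPM at 48 h (edgeR adjusted p = 0.449). Of the 10 transcription factors, all tested, 0 had an unadjusted p under 0.05, and their median log2 change was -0.04. The share of all 6812 genes with such a p was 4.62%, so 0 of 10 shows little.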

How the data were processed

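Distal small-intestinal epithelium of 8 mice was sequenced as 2 pools of hashtagged single cells. Per the file headers, the deposited matrices hold raw counts from Cell Ranger 6.1.2, namely UMI counts per gene and antibody counts per hashtag, and the submitters' processing notes give mm10. The deposited lists of features and barcodes are names, kept as other values. The library chemistry and the authors' cell filters are not given in the sources used here. The pools held 3342 and 2110 barcodes, of which 1134 and 877 passed the filter, and 137 and 120 were goblet cells.

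A cell's mouse was read from its top hashtag, and its gate from that hashtag together with the pool, per the labels. Doublets across mice were limited only by the hashtag share, and no doublet caller was run. The cells, gene lists and comparisons were chosen with earlier results of these data known. Named genes were all genes of the rule, the 3 most abundant members of each list in goblet cells, all 10 transcription factors, the 15 genes with the largest median ratio among those 2-fold higher in every mouse, and called genes with average log2 CPM of at least 4. Others were named after their values were seen. The result of 1 gene is not reported here. All 69 had the same identifier and name in GENCODE M21 (GRCm38).

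The mouse was the replicate. Shares were tested over mice with exact permutation tests (two-sided), and within mice with exact sign flips. Goblet UMIs summed per mouse and gate were tested with edgeR's quasi-likelihood test (edgeR 4.0.16 in R 4.3.3) after filterByExpr and TMM, with pool as covariate and Benjamini-Hochberg adjustment over all genes tested, and DESeq2 1.42.0 as an alternative. Sums of at least 10 goblet cells were planned. For 72 h clones 2 sums reached this, so sums of at least 5 were used there. Clones and control cells of a mouse come from 1 animal. Deviations of their sums from the mean of their group correlated across genes at 0.08, 0.02 and 0.20 in mice 5, 7 and 8. Pool was not taken out of these deviations, and the gates of a mouse lay in opposite pools. Low values therefore do not show that the gates of a mouse are independent. Mouse was also fitted as a block. On simulated counts with known changes, the test found, for clones against control over 6181 genes, 44 of the 96 log2 changes of 1, 91 of the 99 of 2 and 9 false calls. Between times, over 6551 genes, it found 61 of 98, 85 of 87 and 11 false calls. The simulated counts had no effect of mouse or pool and many genes changed at once, so recovery in the data may be lower. Alternatives changed the mucus threshold, mitochondrial limit, hashtag share, division limit, scaling, filter, pool term and mice included. Limits of at least 5000 UMIs and centring on the median gene were added after the data were seen.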

Additional observations from a re-analysis of the deposited data

Results flagged for a closer look

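Across the ratios of the 69 named genes and the groups of shares, 76 in all, 1 value lay far from the others. Foxa1, a forkhead factor of the secretory lineage, had a log2 ratio of goblet over other cells of 0.11 in mouse 1, against 0.71 to 1.19 in the other 7 mice. About 1 in 20 groups is marked this way by chance, and the cause was not tested.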

How the results depend on the processing

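Values are listed where a side of the threshold, a direction or a count changed, and share differences are in percentage points with exact permutation tests. At a mucus threshold of 3% the 48 h clones held only 1 goblet cell and the 72 h clones 31. Clones minus control then gave -6.42 at 48 h (exact permutation p = 0.0286), -4.16 at 72 h (p = 0.0857) and -5.29 over all mice (p = 0.00218). The 72 h minus 48 h difference was 3.49 in clones (exact permutation p = 0.0286) and 1.22 in control. On the side of the 48 h clones these values rest on that 1 cell. The unadjusted p of the 72 h difference was no longer under 0.05 at a threshold of 0.5% (-6.21), a mitochondrial limit of 50% (-5.74), a top hashtag of at least 80% (-6.29) and with mouse as a replicate block (-6.86, exact p = 0.125, the smallest possible), and was -8.02 to -5.35 without 1 mouse, where 0.1 is the smallest p. Over all mice the unadjusted p fell under 0.05 at a mitochondrial limit of 50% (-7.04), with dividing cells kept (-8.83), in sets of at least 10 cells (-7.67) and without mouse 3 (-7.76) or 4 (-8.33), ranging from -8.33 to -4.89. The 72 h minus 48 h difference changed sign in clones with at least 5000 UMIs (0.743) and in sets of at least 10 cells (1.82), ranging from -4.34 to 3.99 without 1 mouse. In control it changed sign at a mitochondrial limit of 10% (0.0023) and with dividing cells kept (0.495), ranging from -2.63 to 0.880. The 72 h clone difference in mucus share changed sign at 3% (-1.22), 0.5% (-1.0) and a top hashtag of 80% (-0.177), and was 0.285 over 3 pairs of the same mouse (exact sign flips p = 0.75).

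Within goblet cells, the 0 genes of 72 h clones against control became 8 without a filter, 5 with the replicate block and 1 at a threshold of 0.5% (Tm4sf20), and 0 to 1 without 1 mouse. The 2 genes of 72 h against 48 h control became 31 without a filter. They became 0 without the pool term, with sums of at least 5 cells, at a threshold of 0.5%, at a mitochondrial limit of 50% and with dividing cells kept. Without 1 mouse the count was 0 to 15, with 15 without mouse 8. The adjusted p of Zbtb20 ran from 2.55e-06 to 0.251 and that of Scd2 from 1.84e-08 to 0.453, with directions kept. A threshold of 3% and a top hashtag of 80% left too few sums for either test, and no block could join different mice at 72 h and 48 h. Genes 2-fold higher in goblet cells numbered 341 when centred on the median gene, and 144 to 245 in the other settings. Of 1242 values of named genes, 1228 moved by less than the spread between mice, 14 by more and 0 changed sign. The causes were not tested. Precision is limited by 4 mice per time and by goblet numbers, 57 in 72 h clones and 8 in 48 h clones.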
